A study of Homo sapiens with 12 samples.

Results

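The ribosomal DNA contig is GL000220.1, a sequence of the human reference hg19 that is placed on no chromosome and holds copies of the rRNA repeat. It carried 609 CCGG sites with a tag in at least 1 library, of 1019951 such sites in the whole series. All sites listed on the contig were taken, by position alone. They were described site by site and in windows of 1 kb.

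Human rRNA genes lie in tandem arrays on the short arms of the acrocentric chromosomes. Each repeat has a transcribed unit, which RNA polymerase I reads into the precursor of the small- and large-subunit rRNAs, followed by a long intergenic spacer. In most cells active repeats have little CpG methylation in the transcribed unit, silent repeats have more, and the spacer is largely methylated.

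DNA came from a pair of clear cell renal cell carcinoma (ccRCC) lines, named 786 and 769 in the labels. From each line there were 2 samples of AA-treated cells (AA stands for ascorbic acid, per the title of the series, which TET dioxygenases need to oxidise methylated cytosine efficiently) and 1 sample of control cells. Dose, time and whether the AA samples came from separate cultures are not stated in the labels, so p-values below measure only the spread between these samples, which may be technical. By the HELP-tagging method each DNA was cut in separate reactions with HpaII, which cuts CCGG only where the inner cytosine is unmodified, and with MspI, which cuts in either case, and short tags beside the cuts were counted. The readout is the share of the HpaII library that fell on a stretch, divided by the share of the MspI library of the same DNA. A value of 1 means equal shares, and values rank stretches within a sample and are relative to the rest of the library.

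Library totals ran from 189704 to 12442031 tags. The HpaII library of the 786 control was the smallest, and the next smallest HpaII library held 3111094 tags. On the contig the 786 control HpaII library had 7641 tags, while the other 11 libraries had between 162068 and 594419. Every result of AA in 786 rests on that shallow control.

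The CCGG sites were spread unevenly along the contig. From 1 to 104000 the reference had 1.10 CCGG sites per kb, called the flank here, with 67 listed sites. A first CCGG-dense block followed at GL000220.1:104001-120000 with 20.4 sites per kb and 241 listed sites. Between 120001 and 148000 lay a spacer of 3.46 sites per kb with 91 listed sites. A second dense block ran from 148001 to the last listed site at 161485, with 21.1 sites per kb and 210 listed sites. The borders were set after the data were seen, as runs of at least 5 windows with at least 10 reference sites each, and no annotation of this contig in hg19 was used to name genes within the blocks.

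The blocks are copies of each other. A shift of 43972 bases laid 209 sites of the first block on sites of the second, out of 210 that could pair, against 21 pairs at the next best shift. Between 205 and 209 of the 209 pairs had tag counts within 0.1% of each other in each library, including pairs with no tag. By library, 53.8% to 61.5% of the contig's listed sites had fractional counts, which is how tags that align equally well to several places appear when they are split. The second block is therefore no independent measurement. Counts over both blocks below include each copy, and the counts of the first block alone stand beside them.

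The contig stood for far more DNA than its length. MspI tags per reference CCGG site were 217 to 259 times those of chromosomes 1 to 22 and X in the spacer, and 135 to 158 times in the first block. Block tags are split over both copies, while the spacer between them is a single stretch. These folds are therefore not comparable between blocks and spacer. In the flank they were 1.53 to 2.44 times those of the chromosomes. Tags from all repeats of a cell thus fall on the blocks and the spacer, and a larger share of unmodified repeats and less modification in every repeat cannot be told apart.

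**Figure D1:**
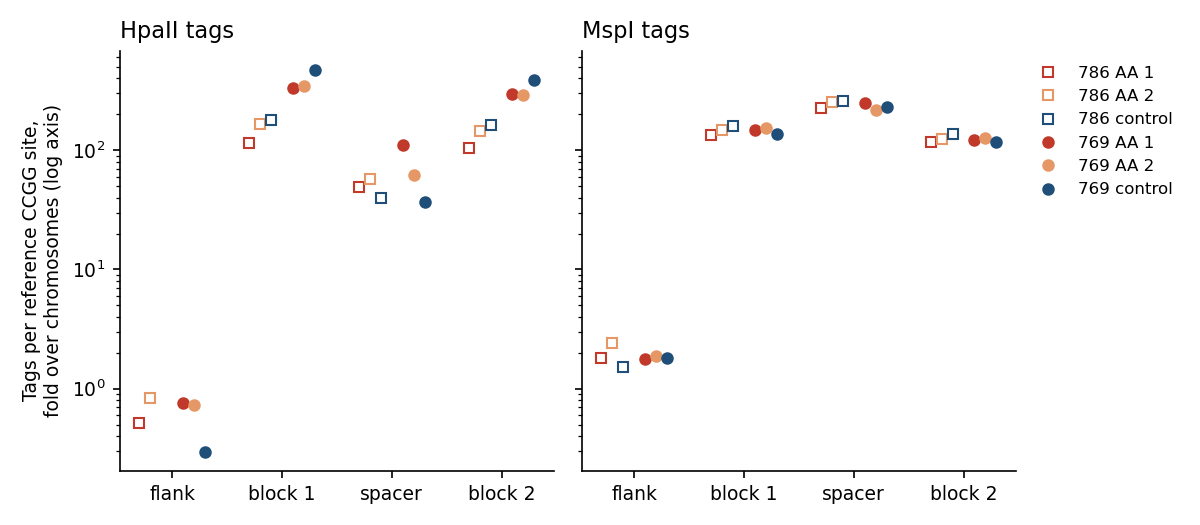
Tags per reference CCGG site on each stretch of the ribosomal DNA contig, as a fold over chromosomes 1 to 22 and X (log axis), for HpaII (left) and MspI (right); each point is 1 library, open squares 786 and filled circles 769. MspI points of the 6 samples lie close together in every stretch except the flank, while HpaII points of 786 lie below those of 769 in both blocks. The 786 control had 0 HpaII tags in the flank and has no point there. Block tags are split over both copies, so heights of blocks and spacer are not comparable.

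The share of MspI tags on the contig differed little between the lines. It was 4.01% and 4.37% in the AA samples and 4.55% in the control of 786, against 4.36% and 4.33% in the AA samples and 4.05% in the control of 769. The lines overlapped, with means of 4.31% ± 0.273 in 786 and 4.25% ± 0.170 in 769 (SD, n = 3 each). The log2 difference of 0.02 was within the spread (exact permutation of the line labels over 20 arrangements, two-sided, p = 0.8). Relative to MspI tags in dense windows of the chromosomes, in place of the library total, the log2 difference was 0.22, or 1.16-fold, and the lines did not overlap (p = 0.1 by the same exact test, the smallest possible).

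The share of HpaII tags on the contig separated the lines. It was 2.74% and 4.04% in the AA samples and 4.03% in the control of 786, against 8.04% and 7.60% in the AA samples and 10.4% in the control of 769. Every 786 sample lay below every 769 sample.

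HpaII over MspI on the whole contig was 0.683 and 0.925 in the AA samples and 0.886 in the control of 786, against 1.84 and 1.75 in the AA samples and 2.56 in the control of 769. The groups did not overlap, among AA samples or between the controls. The ratio of 786 was 0.408 times that of 769, a log2 difference of -1.29 (exact permutation over lines, two-sided, p = 0.1, the smallest that 3 against 3 samples allow). Without the shallow 786 control it was -1.35.

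The lines were apart in the blocks and overlapped in the spacer. Over both blocks the ratio was 0.820 and 1.13 in the AA samples and 1.09 in the control of 786, against 2.26 and 2.12 in the AA samples and 3.26 in the control of 769. The means were 1.01 ± 0.170 in 786 and 2.55 ± 0.621 in 769 (SD, n = 3 each). In the spacer the ratio was 0.205 and 0.226 in the AA samples and 0.144 in the control of 786, against 0.429 and 0.267 in the AA samples and 0.151 in the control of 769. There the control of 786 and the control of 769 were nearly equal, and their 95% exact counting intervals, 0.127 to 0.162 in 786 and 0.148 to 0.155 in 769, overlapped. Such intervals cover counting error only, since PCR copies were not marked.

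Within the contig the blocks were cut by HpaII far more than the sparse stretches in all 6 samples. Dense windows (16 or more reference sites, 18 windows) had 3.36 and 4.26 times the ratio of sparse windows (7 or fewer, 52 windows) in the AA samples and 6.73 times in the control of 786, against 4.07 and 5.82 times in the AA samples and 19.3 times in the control of 769. The mean log2 difference was 2.57, or 5.94-fold (exact sign-flip test over 6 samples, two-sided, p = 0.03125, the smallest 64 arrangements allow). With each site's count capped at the median of the contig's listed sites in that library it was 2.83-fold, with the same p. Both tests take the 6 samples as independent, though they come from a pair of lines. Leaving out any 1 sample gives a smallest possible p of 0.0625, which each of these reached. The chromosomes showed the same order: dense windows had a ratio of 2.28 ± 0.177 in 786 and 2.80 ± 0.708 in 769, and sparse windows 0.678 ± 0.0286 in 786 and 0.507 ± 0.0818 in 769 (SD, n = 3 each).

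**Figure D2:**
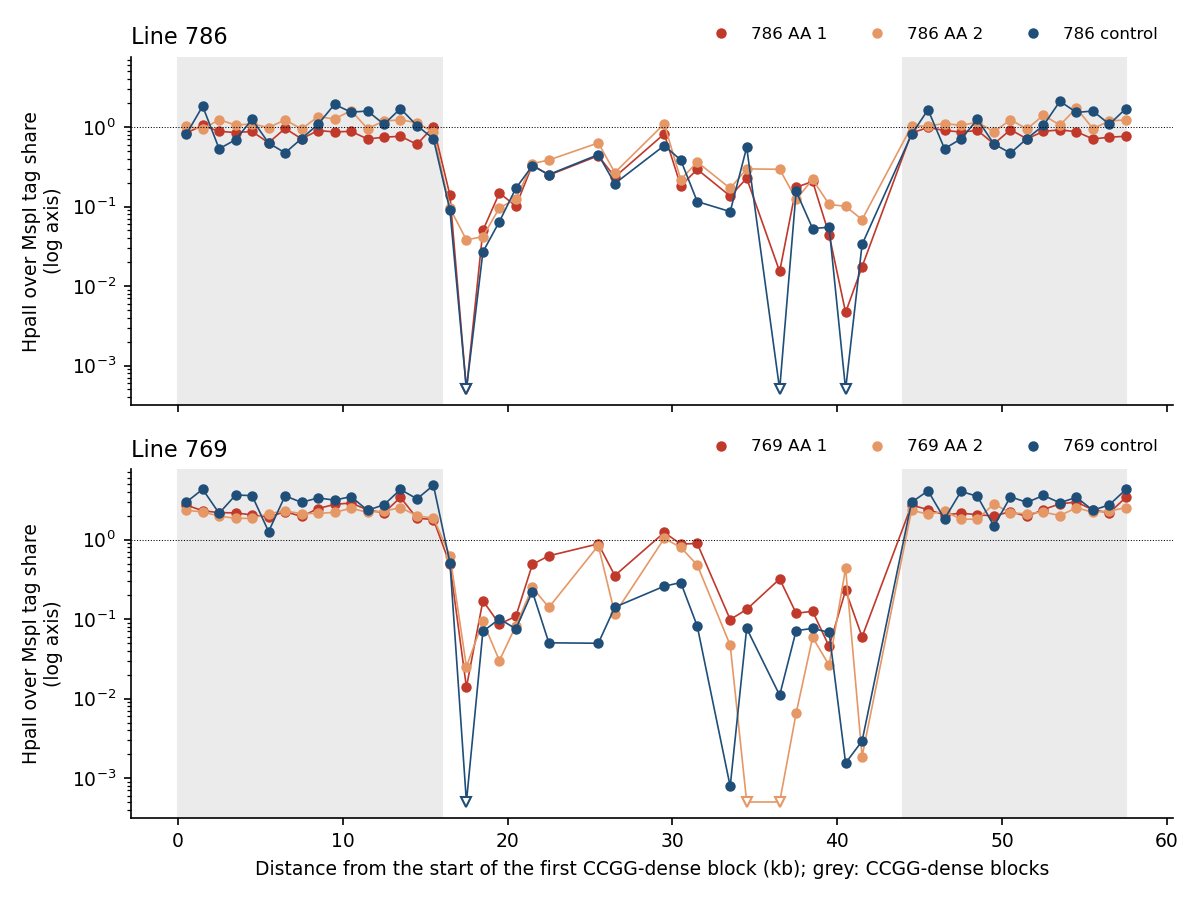
HpaII over MspI tag share (log axis) in tested 1 kb windows along the ribosomal DNA contig from the start of the first CCGG-dense block, 786 above and 769 below; grey marks the blocks, the dotted line a ratio of 1, and open triangles at the lower edge windows with no HpaII tag (one may hide another). Block windows lie above 1 in all 3 samples of 769 and around 1 in 786, and spacer windows lie mostly below 1 in both lines.

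Against CCGG-dense windows of the chromosomes, the rDNA was low in 786. The classes share a lower limit of reference sites but were not matched in density. The contig class held 462 reference sites in 18 windows, and the chromosome class held 74027 in 3813. A comparison matched in density was not run. Dense windows of the contig had 0.396 and 0.482 times the ratio of dense chromosome windows in the AA samples and 0.483 times in the control of 786, against 0.898 and 0.907 times in the AA samples and 0.964 times in the control of 769. All 6 samples were below 1, with a mean log2 difference of -0.63, or 0.646-fold (exact sign-flip test, two-sided, p = 0.03125). That test takes the 6 samples as independent, though they come from a pair of lines that lay apart here. The 786 samples were lower than the 769 samples by a log2 difference of -1.03 on this scale (exact permutation over lines, two-sided, p = 0.1, a comparison added after the data were seen). The lower rDNA call depended on the density threshold: with dense windows set at 8 or more reference sites the mean was -0.32 (exact sign-flip test, p = 0.25).

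**Figure D3:**
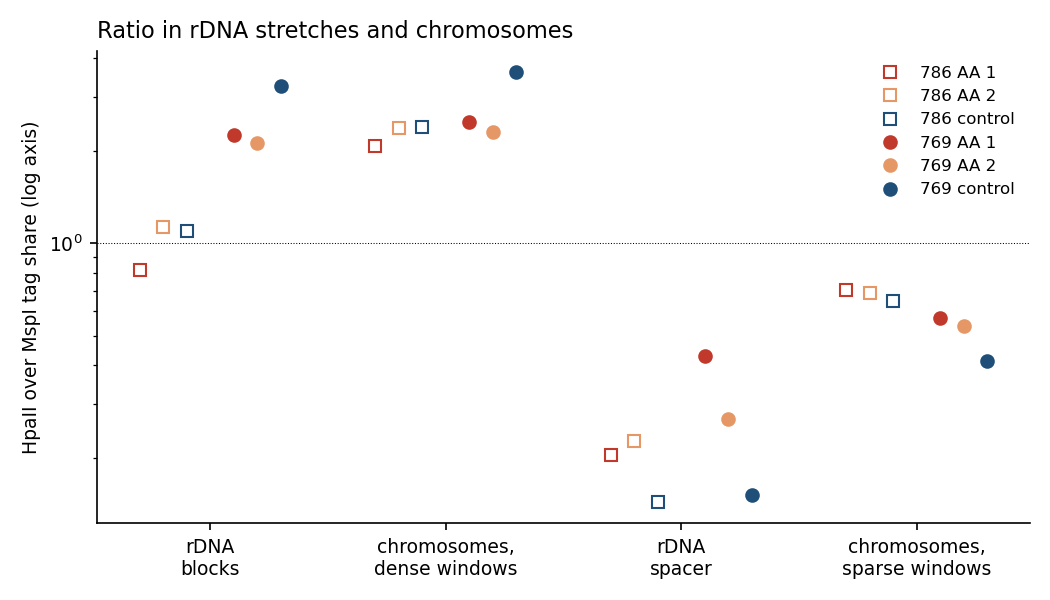
HpaII over MspI tag share (log axis) in the blocks and the spacer of the ribosomal DNA contig, each beside chromosome windows of 16 or more (dense) or 7 or fewer (sparse) reference CCGG sites; each point is 1 DNA sample, open squares 786 and filled circles 769, and the dotted line marks 1. In the blocks the 786 samples lie between 0.820 and 1.13, below both the 769 samples and the dense windows of the chromosomes, and in the spacer the AA samples of each line lie above its control.

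Single sites of the blocks put the lines in the same order. Of the 241 sites of the first block, 213 had at least 10 MspI tags in every sample. Their median ratio was 0.904 and 1.15 in the AA samples and 0.758 in the control of 786, against 2.27 and 2.09 in the AA samples and 3.55 in the control of 769. A ratio above 1 was seen at 42.7% and 56.8% of them in the AA samples and 41.8% in the control of 786, against 96.7% and 94.4% in the AA samples and 86.9% in the control of 769. Of the 91 spacer sites 61 met the same minimum, and of the 67 flank sites 2 did. The median spacer site had a ratio of 0.125 and 0.122 in the AA samples and 0.0353 in the control of 786, against 0.169 and 0.0646 in the AA samples and 0.0355 in the control of 769. At 47.5% of spacer sites the shallow 786 control had no HpaII tag, compared with 21.3% in the 769 control.

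No single site carried the contig. The strongest site of a library held 1.47% to 4.70% of its contig tags, and the 10 strongest held between 11.8% and 22.5%.

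Windows were tested with edgeR's quasi-likelihood test on rounded tag counts of all 12 libraries, with Benjamini-Hochberg adjustment over 29887 windows of the whole genome and a threshold of 0.05 on the adjusted p. Of 87 contig windows with a listed site, 53 had tags enough to be tested: all 30 of the blocks, 20 of 22 in the spacer and 3 of 35 in the flank. The lines differed in 12 contig windows, all with a lower ratio in 786, while 2.62% of all windows were called in either direction and 0.813% were called lower. Of the 12, 6 of 16 tested lay in the first block, 4 in the second, which repeats it, and 2 in the spacer. The median log2 fold of 786 over 769 was -1.47 in block windows (-1.46 in the first block alone) and 0.28 in spacer windows, beside -0.46 in dense and 1.24 in sparse chromosome windows and 0.17 over all windows tested. All 786 samples lay below all 769 samples in 29 of 30 block windows (16 of 16 in the first block) and 2 of 20 spacer windows, against 6.37% of all windows. They lay above all 769 samples in 2 of 20 spacer windows and in 0 of 30 block windows, against 7.42% of all windows.

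The calls between lines rested on few samples. Without AA sample 1 of 769 or without AA sample 2 of 769, none of the contig windows was called (34 and 33 had an unadjusted p under 0.05). Without AA sample 1 of 786 there was 1. Of all 29887 windows, 168, 13 and 129 were called in these fits, against 784 with all samples. The loss of calls was thus not particular to the contig. Without the shallow 786 control there were 15 on the contig, all lower in 786, against 576 of all windows. The folds, in contrast to the calls, were alike across the blocks, from -1.82 to -1.16 on the log2 scale.

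The largest called fold between lines that did not overlap was at the start of the spacer, in GL000220.1:120001-121000. Its ratio was 0.139 and 0.0952 in the AA samples and 0.0896 in the control of 786, against 0.487 and 0.628 in the AA samples and 0.513 in the control of 769. The log2 fold of 786 over 769 was -2.50 ± 0.49 (SE; edgeR, adjusted p = 0.001755). Most of its HpaII tags, 54.1% to 83.3% by sample, came from the site at 120288, the second strongest MspI site of the contig. That site had ratios of 0.0886 and 0.0703 in the AA samples and 0.0915 in the control of 786, against 0.428 and 0.536 in the AA samples and 0.409 in the control of 769. Fitted as a single site it was lower in 786 as well, by a log2 fold of -2.68 (edgeR, adjusted p = 0.03262).

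A spacer site at 122587 was the other contig site called between lines in the fit of single sites. That made 2 of 459 contig sites tested, or 0.436%, against 2.27% of all 10877 sites. It had a ratio of 0.0232 (24 HpaII tags) and 0 in the AA samples and 0 in the control of 786, against 0.239 and 0.129 in the AA samples and 0.0612 in the control of 769 (log2 fold -4.69, edgeR, adjusted p = 0.04822). With no HpaII tag in AA sample 2 or the control of 786, this fold is not a measured size.

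Among block windows the first windows of the blocks, from 104001 and from 148001, were called with the same values, as copies of each other. The window from 104001 had a ratio of 0.842 and 1.02 in the AA samples and 0.807 in the control of 786, against 2.72 and 2.34 in the AA samples and 2.95 in the control of 769. Its log2 fold was -1.75 ± 0.46 (SE; edgeR, adjusted p = 0.0247). The window from 110001 and its copy from 154001 had log2 folds of -1.82 (adjusted p = 0.03509) and -1.80 (adjusted p = 0.03964) by edgeR. In the window from 110001 the ratio was 0.961 and 1.23 in the AA samples and 0.473 in the control of 786, against 2.25 and 2.30 in the AA samples and 3.55 in the control of 769. The block windows with most MspI tags, from 111001, 118001, 119001 and 155001, had log2 folds between -1.72 and -1.52, also called by edgeR (adjusted p between 0.01931 and 0.03199).

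The ratio of the whole contig did not set AA samples apart from controls in both lines. HpaII over MspI of the whole contig, with the values above, was lower in both AA samples of 769 and on both sides of the control in 786. The mean log2 difference of AA minus control was -0.33 (exact permutation within lines over 9 arrangements, two-sided, p = 0.3333, where 0.1111 is the smallest possible). With dense chromosome windows in place of the library total as denominator it was 0.02.

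In the blocks the AA samples lay below the control in 769 and on both sides of it in 786. Over both blocks in 769 the AA samples averaged 2.19 ± 0.0963 (SD, n = 2), against 3.26 in the control, or 0.672 times. Dense windows of the chromosomes in 769 had 2.39 ± 0.131 in the AA samples and 3.61 in the control, or 0.663 times. In 786 the blocks averaged 0.976 ± 0.220 in the AA samples, with 1.09 in the control.

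The spacer ratio was higher in all 4 AA samples than in the control of their line. It was 1.42 and 1.58 times the control in 786, and 2.84 and 1.76 times the control in 769. The site at 135353, described below, carried part of this rise. In 786 it held 6161 of 19959 and 2354 of 8970 spacer HpaII tags in the AA samples, and 44 of 269 in the control. In 769 it held 10746 of 29147 and 1602 of 7019 in the AA samples, and 731 of 7863 in the control. The spacer ratio without this site was not computed. Sparse windows of the chromosomes were 1.09 and 1.06 times the control in 786, and 1.37 and 1.30 times in 769. In the flank of 769 the ratio was 0.386 ± 0.0422 in the AA samples (SD, n = 2) and 0.156 in the control. In 786 the flank had 0.304 ± 0.0533 in the AA samples, and the control had 0 HpaII tags there, which allows a ratio of up to 0.231 at 3 tags, or 0.284 by the 95% exact interval. AA sample 1 of 786, at 0.267, lies between these limits, so the flank did not clearly separate AA from control in 786.

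The contrast between dense and sparse windows of the contig was lower in all 4 AA samples than in their controls, with the values given above. The mean log2 difference of AA minus control was -1.41, or 0.377-fold (exact permutation within lines, two-sided, p = 0.1111, the smallest possible). The direction stayed the same under the 15 alternatives tried, though some of them could not change it. The other library denominators cancel out of this contrast, and the replicate block leaves its mean as it is. Under the rest the log2 difference varied in size. It was -0.42, or 0.746-fold, with site counts capped at the contig median, and 0.501-fold without the contig site with most tags in each library. Without the control of 769 it was -0.83, and without the control of 786 it was -1.99.

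AA against control in both lines together called 3 contig windows, all higher in AA and all in the spacer, while 0.622% of all windows were called and 0.596% were called higher. In 769 alone 5 were called, all higher in AA and all in the spacer, against 2.03% of all windows called and 1.95% called higher. In 786 alone edgeR called 0 against 0.097% of all windows. An unadjusted p under 0.05 was seen in 7, or 13.2%, against 9.98% of all windows, and DESeq2 called 5, or 9.43%, against 0.311% of all windows. The difference of the AA effects between 786 and 769 also gave 0 calls in edgeR against 0.147% of all windows. Here 10, or 18.9%, had an unadjusted p under 0.05, against 10.8% of all windows, and DESeq2 called 8, or 15.1%, against 3.54%. Whether the AA effects of the lines differ therefore depended on the tool and the fit.

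The 3 calls over both lines were lost without AA sample 1 of 769 and without AA sample 2 of 769. Of all 29887 windows 1 and 0 were called in these fits, against 186 with all samples. For AA in 1 line without 1 of its AA samples, 1 AA sample and 1 control remain, so only folds are given. In 769 the median log2 fold of contig windows was -0.14 and 0.13 without AA sample 1 or 2, against 0.02 with both. In 786 it was 0.75 and 0.58, against 0.66 with both. The median difference of the AA effects was 0.59 and 0.41 without AA sample 1 or 2 of 786, against 0.47. Both AA samples were above the control in 11 of 20 spacer windows in 786 and in 11 of 20 in 769, and in 11 of 30 block windows in 786 and 3 of 30 in 769 (6 of 16 and 1 of 16 in the first block). Over all windows the shares were 58.8% in 786 and 31.9% in 769. Both were below the control in 10 of 30 block windows in 786 and 24 of 30 in 769 (5 of 16 and 13 of 16 in the first block), against 20% and 25.8% of all windows. The 4 AA samples were all above their controls in 6 of 20 spacer and 3 of 30 block windows (1 of 16 in the first block), against 19% of all windows, and all below them in 8 of 30 block (4 of 16 in the first) and 0 of 20 spacer windows, against 6.28%. Spacer windows had a median log2 fold of 0.81 in 786 and 1.44 in 769, beside 6.02 in 786 and 2.29 in 769 in sparse chromosome windows. Over all windows tested they were 4.28 in 786 and 0.92 in 769. Block windows had medians of 0.38 in 786 and -0.28 in 769 (0.38 and -0.29 in the first block). These fitted folds use TMM scaling, whereas the ratios above use library totals. By those ratios the blocks of 786 averaged 0.892 times the control, the opposite direction. The cause of this difference was not tested. The order of contig and genome in 786 depended on the filter, which did not ask for HpaII tags in each library. With a minimum of 10 in each, the median in 786 was 1.08 over 39 contig windows and 0.06 over 2636 windows of the genome. In 769 these medians were 0.03 and 0.02. DESeq2 with the first filter gave 0.68 on the contig and 1.19 over all windows in 786.

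**Figure D4:**
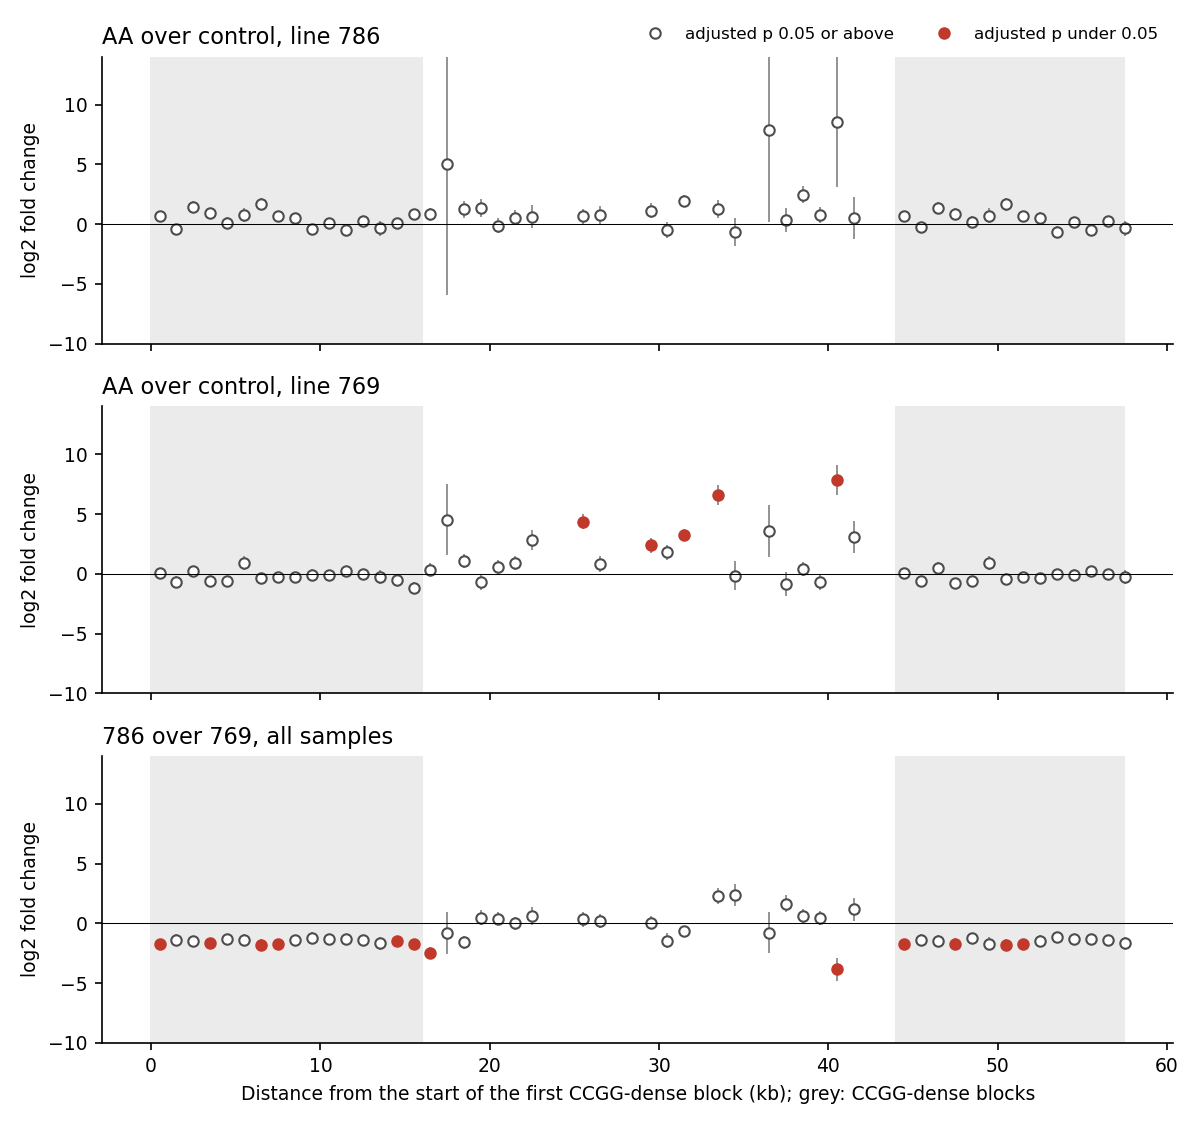
Fitted log2 fold change of the HpaII over MspI ratio in 1 kb windows of the ribosomal DNA contig from the start of the first block, for AA over control in 786 (top) and in 769 (middle) and for 786 over 769 (bottom); bars are SE, some running past the axis limits, red points have an adjusted p under 0.05, and grey marks the blocks. Called AA windows lie in the spacer in 769, none was called in 786, and all block windows lie below 0 in the line comparison.

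Of the 3 windows called over both lines, GL000220.1:135001-136000 had the most tags. It had a ratio of 0.294 and 0.364 in the AA samples and 0.115 in the control of 786, and 0.894 and 0.480 in the AA samples and 0.0817 in the control of 769. All 4 AA samples were above their controls. The log2 fold over both lines was 2.62 ± 0.52 (SE; edgeR, adjusted p = 0.005785), in 769 it was 3.25 ± 0.51 (adjusted p = 0.001181) and in 786 it was 1.97 ± 0.51 (adjusted p = 0.1768, with 0.5431 for the difference between lines). Without AA sample 1 of 769 the fold in 769 was 2.86 (adjusted p = 0.06244).

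This window was almost a single site. The site at 135353, which had the most MspI tags of the contig, gave between 89.8% and 99.9% of its HpaII tags. HpaII gave it 6161 and 2354 tags in the AA samples and 44 in the control of 786, and 10746 and 1602 in the AA samples and 731 in the control of 769. Its MspI tags were 11288 and 10184 in the AA samples and 19791 in the control of 786, and 9144 and 4136 in the AA samples and 18978 in the control of 769. The ratio was 0.304 and 0.379 in the AA samples and 0.109 in the control of 786, and 0.910 and 0.471 in the AA samples and 0.0836 in the control of 769. Relative to the control that was 2.80 and 3.49 times in 786 and 10.9 and 5.64 times in 769. Fitted as a single site its log2 fold over both lines was 2.53 and did not pass (edgeR, adjusted p = 0.07039); the cause was not tested.

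The other called windows of 769 lay in the spacer as well. The window from 129001 had a ratio of 0.884 and 0.842 in the AA samples and 0.0497 in the control of 769, a log2 fold of 4.36 ± 0.64 (SE; edgeR, adjusted p = 0.00054). In 786 it had 0.436 and 0.632 in the AA samples and 0.450 in the control, on both sides of it (adjusted p = 0.7801 for AA). The difference between lines had an adjusted p of 0.08308 in edgeR, and of 0.02467 with a block for the AA sample number and 8.239e-07 in DESeq2. The window from 133001 had 1.23 and 1.04 in the AA samples and 0.259 in the control of 769, the only spacer window above 1 in both AA samples of that line. Its log2 fold of 2.37 ± 0.60 (adjusted p = 0.03769) was under the threshold only narrowly and was lost without either AA sample of 769, at 2.30 and 2.45 with adjusted p of 0.1475 and 0.1145.

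The windows from 137001 and 144001 were called against a control of 2 HpaII tags each in 769, so their size is poorly known. At 137001, 278 and 60.3 HpaII tags were counted in the AA samples of 769, and their ratios were 125 and 59.7 times the control, with 95% counting intervals of 34.4 to 1041 and 15.7 to 502 (edgeR, adjusted p = 0.000133). At 144001 these samples had 463 and 236, and their ratios were 149 and 282 times the control, with intervals of 40.9 to 1232 and 77.3 to 2346 (adjusted p = 0.00195). In 786 the window from 137001 had 0.135 and 0.169 in the AA samples and 0.0863 in the control, a smaller contrast whose difference from 769 had an adjusted p of 0.05853 in edgeR, and of 0.008761 with the same block and 0.007987 in DESeq2. At 144001 the counts in 786 were 17 and 104 with AA, and 0 in the control. This window was also called between lines (log2 fold -3.85, edgeR, adjusted p = 0.01566), although the lines overlapped.

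In 786 the windows with the smallest p for AA were those from 135001, 110001 and 142001, and none passed. The window from 142001 in the spacer had 0.207 and 0.219 in the AA samples and 0.0529 in the control of 786, where the control rests on 7 HpaII tags (log2 fold 2.48 ± 0.68, SE; edgeR, adjusted p = 0.1958). The window from 110001 in the first block had 2.03 and 2.61 times the ratio of its control on 58.2 control tags (adjusted p = 0.2464).

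Strong block sites differed in how AA and control samples stood. The strong pair at 104563 and 148535 followed the blocks, with 0.659 and 0.950 in the AA samples and 0.911 in the control of 786, against 3.03 and 2.58 in the AA samples and 3.59 in the control of 769. The site with the most HpaII tags, at 118568, had a ratio of 1.00 and 2.14 in the AA samples and 1.39 in the control of 786, against 2.12 and 2.65 in the AA samples and 6.80 in the control of 769. At both, the controls stood as in the blocks as a whole, with 769 above 786.

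The site at 119697 had 0.656 and 0.930 in the AA samples and 0.408 in the control of 786, against 0.853 and 1.33 in the AA samples and 4.58 in the control of 769. At 119748 the ratio was 1.09 and 0.801 in the AA samples and 0.615 in the control of 786, against 1.72 and 1.41 in the AA samples and 3.95 in the control of 769. The site at 118136 had 0.520 and 2.20 in the AA samples and 0.582 in the control of 786, against 1.18 and 1.75 in the AA samples and 5.70 in the control of 769. In these sites too the control of 769 was the highest of the 6 samples.

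The controls stood in the reverse order of the blocks at the site at 118874, the third by MspI tags, which had 0.459 and 0.640 in the AA samples and 0.995 in the control of 786, against 2.15 and 1.43 in the AA samples and 0.600 in the control of 769. The pair at 116209 and 160181 had 0.634 and 0.854 in the AA samples and 1.32 in the control of 786, against 1.45 and 1.76 in the AA samples and 1.18 in the control of 769, again with the control of 786 above that of 769. None of these sites was called in any comparison of the fit of single sites.

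The pair of sites at 112143 and 156115 was called for AA in 769 in the fit of single sites (edgeR, adjusted p = 0.03621). They were the only 2 of all 10877 sites called, so the 0.0184% of all sites called is the pair itself. The same tags entered the adjustment as 2 sites. Whether the pair would be called if entered once was not tested. HpaII gave each of them 892 and 240 tags in the AA samples and 0.5 in the control of 769, which is 1 tag over both copies, while MspI gave 187 and 131 tags in the AA samples and 734 in the control. In 786 the ratio was 0.975 and 1.40 in the AA samples and 1.00 in the control. These were the only block sites called for AA, and as copies they are 1 measurement.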

How the data were processed

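Tags came from 12 HELP-tagging libraries of 6 DNA samples (4 of AA-treated and 2 of control cells), each cut with HpaII and with MspI and amplified in 18 cycles of PCR, per the labels' protocols. The authors deposited, for each library, an expected count of tags per CCGG site, on the left, on the right and summed, not normalized, with tags of several places split into fractions as the values show. The submitters' processing notes name hg19 as the build. Aligner and counter are not given in the sources used here. From the summed counts, shares of library totals and their HpaII over MspI ratio were computed per site, per 1 kb window and per stretch with Python 3.11.15. Windows with at least 10 MspI tags in each MspI library and 10 HpaII tags over the HpaII libraries were tested with edgeR 4.0.16 (R 4.3.3) on counts rounded to whole numbers, with terms for DNA sample, enzyme, enzyme by line and enzyme by AA, and TMM scaling within an enzyme. The fits left 3 residual degrees of freedom, or 2 with an AA term for each line. Reference sites per window were taken from the files' running numbering of CCGG sites and are a lower bound. Windows named are the 5 largest called folds a comparison in which every AA sample moved from its control, or lines did not overlap, in the same way; where fewer passed, the 3 of smallest p; and the 5 with most MspI tags. Sites named are the 10 with most MspI and 5 with most HpaII tags, plus those called. The contig, the window classes and the rules were chosen with earlier results of these data known. Alternatives included DESeq2 1.42.0, other filters, scalings and windows, and leaving out each sample. The AA numbers 1 and 2 were not shown to pair samples across lines.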

Additional observations from a re-analysis of the deposited data

Results flagged for a closer look

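In 5 windows and 6 sites both AA samples of 786 lay on one side of their control and both AA samples of 769 on the other. In the window from 119001 the ratio in 786 was 1.01 and 0.863 in the AA samples and 0.712 in the control. In 769 it was 1.79 and 1.87 in the AA samples and 4.82 in the control. Ratios of the sites, and of the other windows or the window each copies, are given above. The values below are the log2 ratio of mean AA over control in 786 minus that in 769. They were 0.431 in the window from 104001 and in its copy from 148001, 1.86 in the window from 110001 and 1.85 in its copy from 154001, and 1.80 in the window from 119001, with AA above control in 786 and below it in 769. edgeR's test of the difference passed in none of these windows, with adjusted p between 0.1741 (119001) and 0.9185 (104001). At 119001 it did pass in DESeq2 (adjusted p = 0.02231), with no filter on low counts (1.936e-40) and without AA sample 1 (0.002517) or AA sample 2 (1.105e-05) of 786, with the log2 difference between 1.03 and 2.54 over the alternatives. At single sites they were 3.03 at 119697 and 1.95 at 119748 in the same direction. In the opposite direction they were -2.44 at 118874, -1.28 at the pair 116209 and 160181, and -0.44 at 120288. The test of the difference passed at none of these sites, with edgeR's adjusted p from 0.4449 to 1. All of these values rest on 1 control a line, and the 786 control had between 15 and 286 HpaII tags in each of these windows and sites.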

How the results depend on the processing

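The AA difference of the whole contig (log2 -0.33) turned to 0.02 with dense chromosome windows as denominator. The small MspI difference of the lines (0.019) was -0.038 with whole-count sites and -0.035 with site counts capped at the contig median, ran from -0.021 to 0.069 without 1 sample, and was 0.22 (exact p = 0.1) with dense chromosome windows as denominator. Dense over sparse contig windows gave 2.83-fold with site counts capped, and log2 values of 2.23 to 2.74 without 1 sample and 2.57 with the replicate block (exact p = 0.25). Dense rDNA over dense chromosome windows gave -1.01 with whole-count sites, which keep 5 block sites. There the exact sign-flip test gave p = 0.0625, against 0.03125 with all sites. The value was -0.32 with dense set at 8 sites, -0.49 to -0.75 without 1 sample, and -0.63 with the replicate block (exact p = 0.25). The line and AA differences of the contig and of its dense windows kept their direction under the other alternatives, in tests too small to pass 0.05; dense over sparse windows under AA ran from -0.42 to -1.99.

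Called contig windows, given here for AA over both lines, AA in 769, AA in 786, the difference of AA effects, and 786 over 769 in that order, numbered 3, 5, 0, 0 and 12 as reported. DESeq2 called 5, 10, 5, 8 and 34, and of all windows 2.66%, 12%, 0.311%, 3.54% and 11.3%. Its 10 for AA in 769 were 8 higher and 2 lower in AA, against 2958 and 637 of all windows. Requiring 10 HpaII tags in each library, 1, 3, 1, 0 and 0 of 39 were called, the last with 32 at an unadjusted p under 0.05. Of all 2636 windows tested in this way, 9, 44, 17, 7 and 0 were called, the last with 173 unadjusted. With no filter the counts for AA in 769, AA in 786, the difference and the lines were 11, 17, 21 and 28 of 67. Of all 166445 windows without the filter, 364, 199, 194 and 319 were called. For AA in 769 these were 5 higher and 6 lower in AA on the contig, against 330 and 34 of all windows. Single sites gave 0 for AA over both lines, 2 for AA in 769, which are copies of each other, and 2 between lines. Of all 10877 sites, 6, 2 and 247 were called. Thinned libraries gave 3 for AA in 769 and 1 between lines, against 26 and 81 of all 14247 windows. HpaII alone gave 0 for AA over both lines (6 unadjusted) and 1 for the difference, against 54 and 451 of all 29887 windows. Totals without TMM gave 6 between lines, 5 of them lower, against 880 and 236 of all 29887 windows. TMM moved the median AA log2 fold of all windows to 1.34, against 1.02 without it. On the contig the sign of this median depended on the scaling, at 0.24 with TMM and -0.11 without it. In 769 the contig median was 0.02 with TMM and -0.23 without it. In 786 it was 0.66 with TMM and 0.20 without it. The replicate block gave 2 for the difference and 2 between lines and moved no other count by over 1.5 times. Of all windows, 254 and 547 were called with it for the difference and between lines. The AA numbers were not shown to pair samples. Deviations of same-numbered samples correlated at -0.01 over all 29887 windows and -0.23 over the 53 of the contig. A crossed block was therefore added after the data were seen. It also gave 2 for the difference and 2 between lines, against 225 and 505 of all windows. Without 1 sample the counts ran from 0 to 15 between lines, and from 0 to 4 for AA over both lines, where only AA samples were left out. Of all 29887 windows, 13 to 576 and 0 to 97 were called in these fits. Counts for AA in 1 line are not given here, since some of those fits rest on 1 AA sample and 1 control. The causes of these shifts were not tested.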
